A study of Homo sapiens with 11 samples.

Results

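The genes described here are 10 members of the FOXO and muscle-atrophy programme, out of 33080 genes in the deposited tables. They are the ubiquitin ligase genes FBXO32, TRIM55 and TRIM63, the transcription factor genes FOXO1, FOXO3 and FOXO4, and 4 genes tied to FOXO activity or to the insulin pathway upstream of it: SESN3, IRS2, PIK3IP1 and CITED2. All 10 were found by symbol in both tables. The set was selected on measured values of these libraries: FBXO32 and TRIM55 stood higher with the first AKR1A1 siRNA than with the second. The levels of those 2 genes, and every difference between the 2 siRNAs, are therefore given as descriptions without a test.

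FOXO factors are transcription factors that are held in the cytoplasm when insulin or growth factors activate PI3K and AKT, because AKT phosphorylates them and 14-3-3 proteins then retain them. When the pathway is quiet they enter the nucleus and switch on genes of growth arrest, stress resistance, autophagy and protein breakdown. In skeletal muscle the best known of these targets is FBXO32 (atrogin-1, also called MAFbx), the substrate-binding subunit of an SCF ubiquitin ligase that marks proteins for the proteasome during wasting. TRIM63 (MuRF1) is the other classical atrophy ligase, and TRIM55 (MuRF2) is its relative at the sarcomere.

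The measurements were gene-level RNA sequencing of 769-P cells, an established human clear-cell renal carcinoma line, harvested 48 h after lipid transfection. The control siRNA group (siSCR) had 4 libraries and is labelled wild-type, the first AKR1A1 siRNA (si1) had 3 and the second (si2) had 4. Both siRNA groups are labelled AKR1A1-/-, although the protocol describes a transient transfection with the siRNA given as 20 µM. All groups shared the line, the transfection reagents and the time. Whether the replicates are independent cultures is not stated in the labels, and the p-values therefore reflect variation among the libraries alone, which may be technical. In bulk RNA, fewer cells with a transcript and less of it per cell cannot be told apart.

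Reads counted on genes ranged from 2108546 to 5939514 per library. AKR1A1 itself, the targeted aldehyde reductase, had normalized counts (reads divided by the library's size factor) of 200 to 390 in the controls, with si1 at 23.6 to 81.7 and si2 at 32.1 to 56.6, so neither siRNA group overlapped the controls. Of 12 markers of renal carcinoma and tubule epithelium, 9 were expressed (normalized count of at least 10 in 3 libraries), PAX8 and CDH6 among them, and CA9 had no read. None of 14 skeletal muscle markers reached that level and 9 of them, MYOD1, MYOG, ACTA1 and CKM included, had no read in any library. The muscle markers summed to a normalized count of 0 to 8.55 per control library, 0 to 9.66 with si1 and 1.05 to 8.03 with si2. No read fell on the 6 endothelial markers, and 1 of 8 leukocyte markers (CD68) and 1 of 8 fibroblast markers (COL1A1) reached the level. The library siSCR 1 stood apart from the other controls, with 12.1% of its reads on mitochondrially encoded genes against 3.46% to 4.46%. That share was 6.57% to 11.1% in si1 and 4.59% to 5.12% in si2. Values without siSCR 1 are given for FBXO32 and TRIM55 and beside the results of named genes whose call it changed.

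FBXO32 was measured at normalized counts of 146, 24.6, 14.4 and 21.4 in siSCR libraries 1 to 4. It was at 429, 354 and 320 in si1, and at 83.1, 59.4, 62.0 and 69.5 in si2. Every si1 library lay above every other library, while siSCR 1 lay above all si2 libraries and the other 3 controls lay below them. These values rested on 11 to 488 reads per library. The control mean was 51.6 ± 63.1 (SD, n = 4), or 20.1 ± 5.21 (SD, n = 3) without siSCR 1. The mean with si1 was 367 ± 55.5 (SD, n = 3), and with si2 it was 68.5 ± 10.7 (SD, n = 4).

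**Figure D1:**
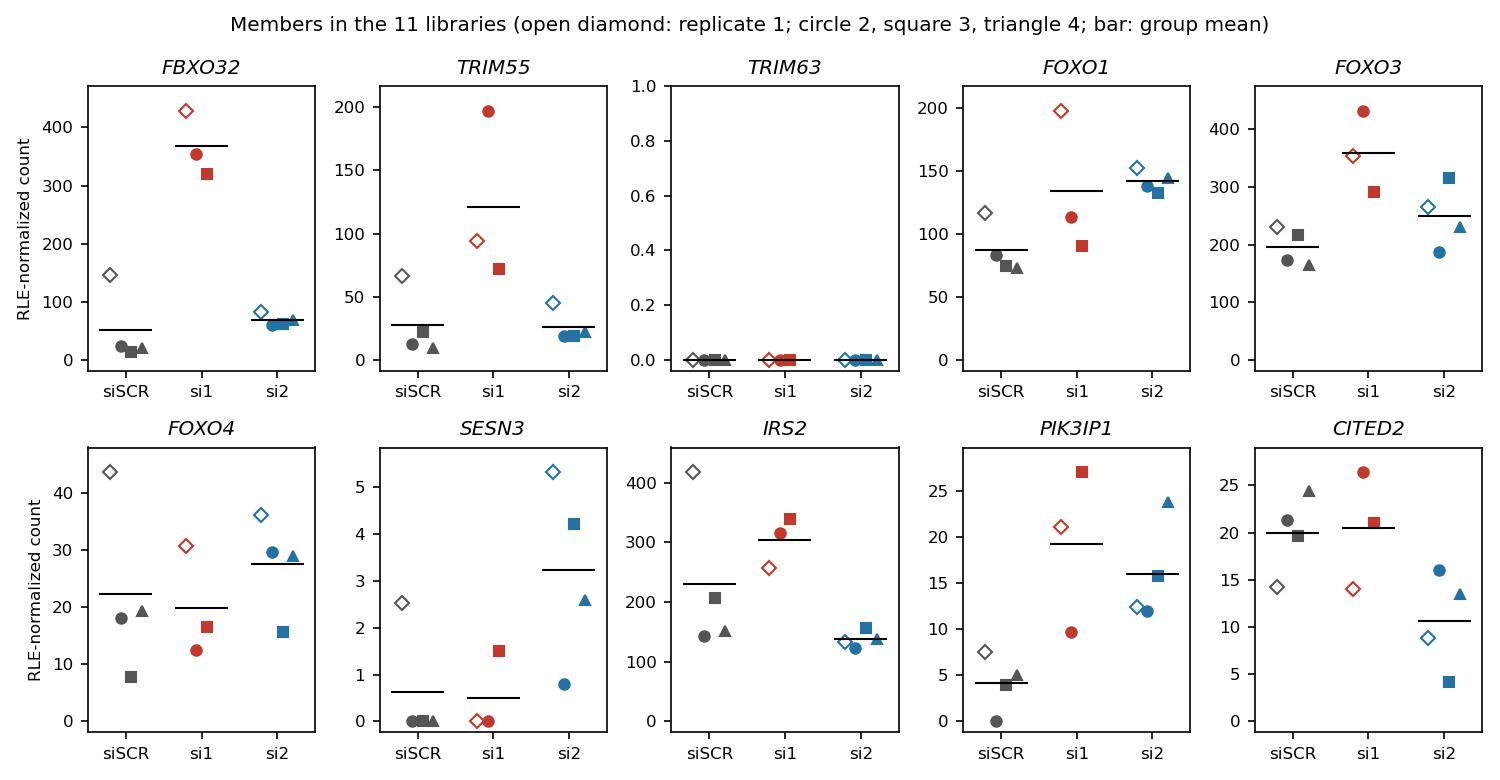
RLE-normalized count (vertical axis, a separate linear scale for each gene) of the 10 members in the libraries of siSCR, si1 and si2; each symbol is 1 library, open diamonds are replicate 1 and bars are group means. FBXO32 is at 320 to 429 in si1 against 14.4 to 146 in siSCR and 59.4 to 83.1 in si2, and TRIM63 is at 0 in all 11 libraries.

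On the scale of log2(normalized count + 1), the difference of si1 from siSCR for FBXO32 was 3.44 (SE 0.71), and 4.15 (SE 0.25) without siSCR 1. The difference of si2 from siSCR was 1.03 (SE 0.58), and 1.74 (SE 0.21) without siSCR 1. With the mitochondrial percentage of each library as a covariate, the differences were 2.71 (SE 0.32) for si1 and 1.45 (SE 0.16) for si2. That percentage was 6.57% to 11.1% in si1, 3.46% to 4.46% in siSCR 2 to 4 and 12.1% in siSCR 1. For si1 the covariate is thus not separate from the siRNA and leans on siSCR 1. The authors' deposited table lists log2 fold changes of 1.42 for si1 and 0.16 for si2. These are smaller than the differences fitted here, and the reason was not tested. The ratio of the mean normalized count to that of the controls was 7.12 for si1 and 1.33 for si2. The difference of si1 from si2, on which the gene was chosen, was 2.41 (SE 0.20). The gene (ENSG00000156804) lies on chromosome 8 of GRCh38 from 123497889 to 123541206 on the minus strand, and none of its exon bases are shared with another annotated gene.

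**Figure D2:**
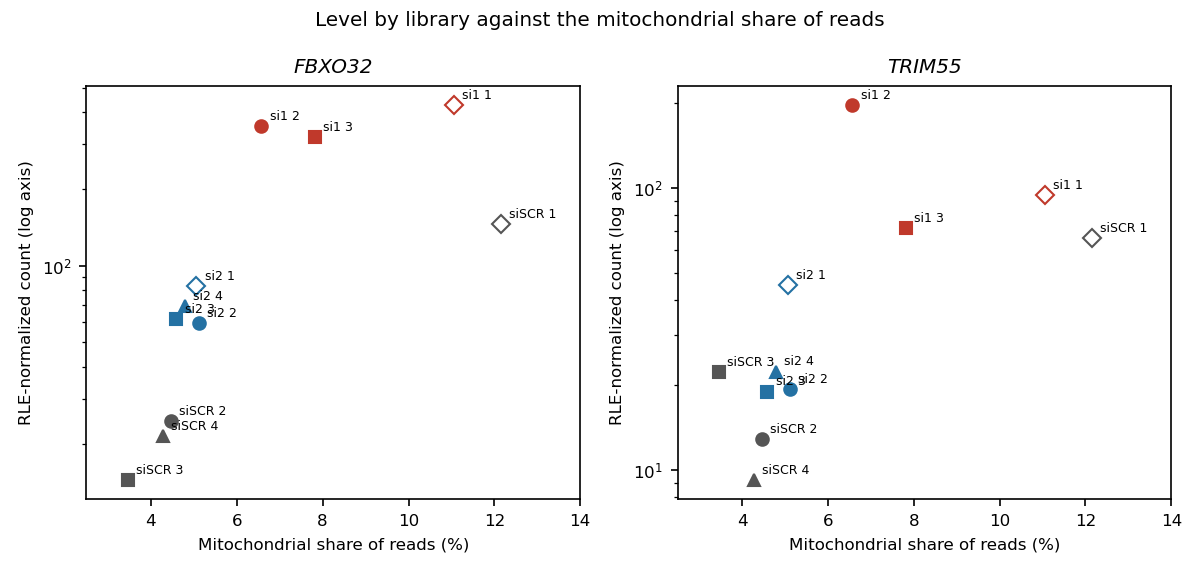
RLE-normalized count of FBXO32 and TRIM55 (vertical axis, log scale) against the percentage of reads on mitochondrially encoded genes (horizontal axis), 1 point per library, coloured by group with open diamonds for replicate 1. siSCR 1, at 12.1% mitochondrial reads, has 146 for FBXO32 and 66.3 for TRIM55, above the other controls in both panels.

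TRIM55 encodes a sarcomere-associated RING-finger ligase of the MuRF family. The normalized counts of TRIM55 were 66.3, 12.8, 22.2 and 9.17 in siSCR, 94.0, 197 and 72.1 in si1, and 45.1, 19.3, 18.9 and 22.3 in si2. All si1 libraries were above all others, with si1 2 more than the rest, and siSCR 1 was again the highest control. The log2 difference from siSCR was 2.36 (SE 0.65) for si1 and 0.24 (SE 0.53) for si2, and si1 exceeded si2 by 2.12 (SE 0.41). Without siSCR 1 the differences from the control were 2.91 (SE 0.45) and 0.79 (SE 0.36), and the si2 value was below 0 without siSCR 4 (-0.12) or si2 1 (-0.04). The authors' deposited table lists 1.495 for si1 and -0.05 for si2. TRIM55 (ENSG00000147573) lies on the same chromosome as FBXO32, from 66126896 to 66175487 on the plus strand, and shares no exon bases with another gene.

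TRIM63, the MuRF gene that usually accompanies FBXO32 in wasting muscle, had 0 reads in all 11 libraries. A count of 0 allows up to 3 reads, which is 0.505 to 1.42 CPM (reads scaled to the library total) in a single library and 0.0827 CPM over the 36266558 reads of all libraries. Expression of TRIM63 was thus not detectable at this depth in any group, including the si1 libraries with the highest FBXO32.

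Among the FOXO factors themselves, FOXO3 had the highest level per transcript length in the controls, with an RPKM (reads per kilobase of exon, scaled to the library total) of 8.29 ± 1.27 (SD, n = 4). FOXO1 was at 4.53 ± 0.880 and FOXO4 at 2.07 ± 1.33 on the same scale (SD, n = 4). FOXO4 had the lowest mean of the 3 and the largest SD relative to it. FOXO6, the fourth family member, had normalized counts of 0 to 9.02 over the 11 libraries and did not pass the filter of 10 that a tested gene needed.

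FOXO3 (ENSG00000118689) lies on chromosome 6 from 108559835 to 108684774. The control libraries had normalized counts of 231, 173, 217 and 164, against 354, 432 and 292 in si1 and 265, 187, 315 and 230 in si2. The si1 libraries did not overlap the controls, whereas si2 did. The log2 difference for si1 was 0.86 (SE 0.22; 95% interval 0.36 to 1.37), which did not pass in the main fit (limma adjusted p = 0.0780). Over 15 alternative fits the adjusted p ranged from 0.0301 to 0.218 and it passed in 3, one of them the fit without siSCR 1 (limma adjusted p = 0.0372). The authors' deposited table gives FOXO3 a log2 fold change of 0.82 with an adjusted p of 0.00457 for si1. For si2 the difference was 0.33 (SE 0.20; 95% interval -0.12 to 0.78; limma adjusted p = 0.399). FOXO3 has a near-identical pseudogene elsewhere in the genome, so the assignment of its reads is uncertain.

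FOXO1 (ENSG00000150907), on chromosome 13 from 40469953 to 40666597, had normalized counts of 117, 83.3, 74.6 and 73.3 in siSCR, 198, 114 and 90.2 in si1, and 152, 138, 132 and 145 in si2. Every si2 library was above every control, while si1 overlapped both other groups and spread widest. The difference from siSCR was 0.72 for si2 (SE 0.18; 95% interval 0.32 to 1.12; limma adjusted p = 0.0594). The adjusted p was 0.00505 without siSCR 1 and ranged from 0.00505 to 0.173 over 16 alternatives, of which 4 passed. The authors' deposited table lists 0.62 with an adjusted p of 0.0261. For si1 the difference was 0.56 (SE 0.31; 95% interval -0.15 to 1.27; limma adjusted p = 0.292). A share of 4.32% of FOXO1 exon bases is also annotated to LINC00598.

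FOXO4 (ENSG00000184481) was low throughout, on 6 to 56 reads per library. Its level was 43.7, 18.2, 7.85 and 19.4 normalized counts in siSCR, 30.7, 12.5 and 16.5 in si1, and 36.3, 29.7, 15.8 and 29.03 in si2. The 3 groups overlapped, and the control libraries held both the highest and the lowest value. The differences from siSCR were -0.02 for si1 (95% interval -1.26 to 1.22; limma adjusted p = 0.989) and 0.48 for si2 (95% interval -0.50 to 1.45; limma adjusted p = 0.599). The sign of the si1 value turned with upper-quartile scaling (0.03) and without siSCR 1 (0.37), where the si2 value was 0.87 (limma adjusted p = 0.135).

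Promoter windows of 8 members were searched in the RefSeq table on GRCh38.p14, 14 windows in all, and those of FBXO32 and TRIM55 were not searched. Each window runs from 250 bases before to 50 after an annotated start. The FOXO core motif GTAAACA was searched on both strands, where its reverse complement reads TGTTTAC. It was present in a window of 2 of these 8 genes, PIK3IP1 and FOXO4, against 4.19% of the 27305 genes in the table and 3.42% of its 35116 windows. The stretches around the matches are shown because they are the only matches among the 8 genes searched, with the motif in capitals and the sequence on the gene's own strand from 5′ to 3′.

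PIK3IP1 (chr22:31292456-31292482, minus strand): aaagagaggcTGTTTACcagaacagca
FOXO4 (chrX:71095864-71095890, plus strand): ccggcgagtgGTAAACAgagacgtcag

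The match of PIK3IP1 begins at base 17 of the transcript that starts there, and that of FOXO4 at base 24. Both are matches of letters in the window and nothing more. The windows of TRIM63, FOXO1, FOXO3, SESN3, IRS2 and CITED2 did not hold these letters.

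PIK3IP1 encodes a membrane protein that binds and inhibits the catalytic subunit of PI3K. It was at normalized counts of 7.56, 0, 3.92 and 5.09 in siSCR, 21.1, 9.71 and 27.0 in si1, and 12.4, 12.0, 15.8 and 23.8 in si2, from 0 to 46 reads per library. A share of 0.946% of its exon bases overlaps the antisense gene PIK3IP1-AS1. Both siRNA groups lay wholly above the controls. All controls were under 10, so the gene passed the filter for si2 only through the si2 libraries, and nothing is read from its test there. For si2 the log2 difference was 2.04 (SE 0.57; 95% interval 0.76 to 3.31; limma adjusted p = 0.0870), a size that depends on the pseudocount at these levels (1.24 with a pseudocount of 5) and on siSCR 2, the control at 0 (1.37 without it). The adjusted p was 0.0249 without siSCR 1 and ranged from 0.0249 to 0.214 over 16 alternatives. The authors' deposited table lists 0.96 with an adjusted p of 0.0479 for si2, and 1.23 with an adjusted p of 0.0742 for si1. For si1 the gene missed the filter, since 1 of the 3 libraries was under 10. In the fit of all 11 libraries together, which it entered only through siRNA libraries, it had a difference of 2.23 for si1 (SE 0.63; limma adjusted p = 0.0466), against 0.107 for si2. In the other alternatives that tested it for si1, the adjusted p was 0.233 with no filter and 0.150 without si1 2.

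IRS2 encodes the insulin receptor substrate that couples the receptor to PI3K, and its gene is a FOXO target in liver. The 4 controls had normalized counts of 417, 143, 207 and 151, against 257, 315 and 340 in si1, and 133, 124, 156 and 138 in si2. The 3 si1 libraries lay above all of si2 with no overlap, and siSCR 1 was above every other library. The difference of si1 from si2 was 1.13 (SE 0.18). Against the control it was 0.54 for si1 (SE 0.38; 95% interval -0.33 to 1.41; limma adjusted p = 0.404) and -0.59 for si2 (SE 0.31; 95% interval -1.28 to 0.09; limma adjusted p = 0.328). Without siSCR 1 these became 0.87 (limma adjusted p = 0.0456) and -0.26 (limma adjusted p = 0.347). Over the alternatives the adjusted p ranged from 0.0456 to 0.650 for si1 and from 0.185 to 0.509 for si2.

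SESN3, a sestrin that restrains mTORC1 and is induced by FOXO factors in several cell types, was nearly silent here, with 20 reads over all libraries. In normalized counts it was at 2.52, 0, 0 and 0 in siSCR, 0, 0 and 1.503 in si1, and 5.31, 0.803, 4.201 and 2.59 in si2, which is 1 to 6 reads in each si2 library. Antisense genes overlap 0.880% of the exon bases of SESN3 and 1.41% of those of IRS2. It did not pass the filter in any comparison. With no filter, the log2 difference was -0.01 for si1 (limma adjusted p = 0.993) and 1.48 for si2 (SE 0.52; 95% interval 0.31 to 2.65; limma adjusted p = 0.267).

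CITED2 encodes a coactivator-binding protein that competes for CBP and p300. Its normalized counts were 14.3, 21.4, 19.6 and 24.4 in siSCR, 14.1, 26.4 and 21.0 in si1, and 8.84, 16.1, 4.201 and 13.5 in si2. The si2 libraries were mostly below the controls but overlapped them. The log2 difference was 0.02 for si1 (SE 0.27; 95% interval -0.61 to 0.65; limma adjusted p = 0.974). For si2 it was -0.96 (SE 0.34; 95% interval -1.72 to -0.19; limma adjusted p = 0.165), with an adjusted p of 0.0785 to 0.353 over the alternatives.

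**Figure D3:**
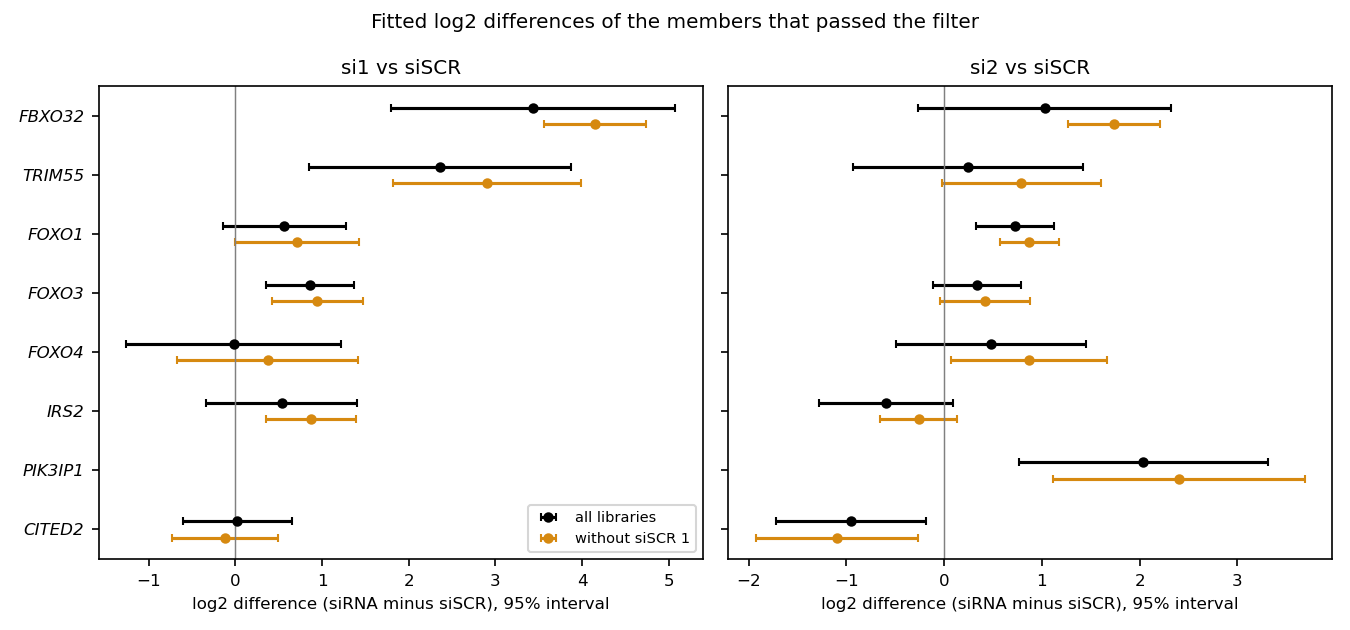
Fitted log2 difference from siSCR (horizontal axis) with its 95% interval for the members that passed the filter, for si1 (left) and si2 (right), with all libraries (black) and without siSCR 1 (orange). FBXO32 moves from 3.44 to 4.15 for si1 and from 1.03 to 1.74 for si2 when siSCR 1 is left out; the intervals of FBXO32 and TRIM55 are descriptive.

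Counted over the 8 members other than FBXO32 and TRIM55, none passed the test against the control. For si1, limma called 0 of the 5 that passed the filter, with 1 at an unadjusted p under 0.05 (FOXO3). Voom called 1 and the fit of all 11 libraries 2 (FOXO3 and PIK3IP1). PIK3IP1 entered that fit only through siRNA libraries, so nothing is read from its call there. Over all genes, 1.72% were called (181 of 10517) and 23.9% had an unadjusted p under 0.05. Voom called 582 of the 10517, and the fit of all 11 libraries called 10.3% of its genes. For si2, limma called 0 of 6, with 3 at an unadjusted p under 0.05 (FOXO1, PIK3IP1 and CITED2), and voom called 1. PIK3IP1, which passed the filter only through si2, is no independent part of these si2 counts. Over all genes, 3.12% were called (320 of 10249) and 19.6% had an unadjusted p under 0.05. Voom called 463 of the 10249. Leaving out siSCR 1 gave 2 calls for si1 (FOXO3 and IRS2) and 2 for si2 (FOXO1 and PIK3IP1), all higher. PIK3IP1 again entered only through si2, so nothing is read from its call. Without siSCR 1, 13.5% and 14.4% of all genes were called, 7.01% and 7.74% as higher. The median log2 difference of the tested members was 0.54 for si1 and, with PIK3IP1, 0.40 for si2, beside -0.03 and -0.01 over all genes. Without siSCR 1 the medians were 0.71 and 0.64, beside -0.04 and -0.01. The comparisons share their 4 control libraries.

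Every si1 library was above every control for 4 of the 10 members (FBXO32, TRIM55, FOXO3 and PIK3IP1), and the same was true of 10.8% of all tested genes. FBXO32 and TRIM55 were chosen for high values in these si1 libraries and PIK3IP1 was not among the tested genes, so nothing is read from that count. For si2 this held for 2 (FOXO1 and PIK3IP1), against 7.09% of tested genes, with PIK3IP1 tested only through its si2 libraries. None lay wholly below the controls in either comparison, against 10.9% and 5.5% of tested genes. Nothing is read from the absence of such members. FBXO32 and TRIM55 were chosen for high si1 values, and TRIM63, SESN3 and PIK3IP1 have a control at 0 and could not lie below it. Between the siRNAs, si1 lay wholly above si2 for FBXO32, TRIM55 and IRS2, a pattern present in 11.6% of tested genes. Nothing is read from this count either, since it includes the genes chosen for it.

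The wider pathway was followed in 4 lists of 102 genes, none of them members. In the list of FOXO target genes, 29 of 36 were tested and none was called for either siRNA. The most abundant of them was CDKN1A, the cyclin-dependent kinase inhibitor p21, which is also a p53 target. Its normalized count was 4349 in siSCR 1, 853 to 948 in the other controls, 5710 to 9083 with si1 and 2505 to 3479 with si2. Its difference was 2.33 for si1 (SE 0.58; limma adjusted p = 0.0740) and 1.12 for si2 (SE 0.47; limma adjusted p = 0.221). Without siSCR 1 it was called for both, at 2.90 (limma adjusted p = 0.00696) and 1.69 (limma adjusted p = 0.00089). With the mitochondrial covariate it was also called, at 1.72 (limma adjusted p = 0.0329) and 1.45 (limma adjusted p = 0.00226). In the si2 comparison the mitochondrial share was 12.1% in siSCR 1 and 3.46% to 5.12% in the other libraries. For si2 that covariate therefore mostly marks siSCR 1, and its fit is not separate from leaving that library out. In the si1 comparison every si1 library exceeded siSCR 2 to 4 in that share, so the covariate is not separate from the siRNA. The covariate fits called 238 of 10517 genes for si1 and 1343 of 10249 for si2. TNFSF10, which encodes the death ligand TRAIL, had differences of 0.62 (limma adjusted p = 0.191) and 0.81 (limma adjusted p = 0.0688), and without siSCR 1 of 0.79 (limma adjusted p = 0.0463) and 0.99 (limma adjusted p = 0.00651). Over the list the median log2 difference was 0.33 for si1 and 0.30 for si2, beside -0.03 and -0.01 over all genes. Of the 29, 24 were above 0 for si1 and 22 for si2. The share of all genes above 0 was not counted, so nothing is read from those counts. Both comparisons share their controls, siSCR 1 included. Without siSCR 1, 7 of the 29 were called higher and 1 lower for si1, and 10 higher and 2 lower for si2. In the same fits 7.01% and 7.74% of all genes were called higher, and 13.5% and 14.4% in either direction.

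Genes of insulin, PI3K and AKT signalling showed medians of 0.10 for si1 and 0.01 for si2. Of 28 tested for si2, PIK3R3 rose and none fell. PIK3R3, a regulatory subunit of PI3K, went from a normalized count of 28.95 ± 3.90 (SD, n = 4) in siSCR to 67.5 ± 6.07 (SD, n = 4) in si2 (log2 difference 1.20, SE 0.16; limma adjusted p = 0.00639). It lost the call in 1 of 16 alternatives, the fit of all 11 libraries. None of 27 was called for si1, where the kinase AKT2 had a difference of -0.43 (limma adjusted p = 0.531), which was 0.11 without si1 2.

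Among 18 regulators of FOXO proteins, SKP2 fell with si2 and none rose. SKP2, an F-box protein that targets FOXO1 and p27 for degradation, went from 126 ± 43.4 (SD, n = 4) to 42.0 ± 4.99 (SD, n = 4), a log2 difference of -1.48 (SE 0.28; limma adjusted p = 0.0246). In siSCR 1 it was at 62.1 against 139 to 158 in the other controls. It lost the call when any 1 of the other 7 libraries was left out (highest adjusted p over all alternatives 0.0835). None was called for si1, where the 14-3-3 genes YWHAB and YWHAZ had differences of -0.25 (limma adjusted p = 0.381) and -0.51 (limma adjusted p = 0.174).

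Of 17 tested genes among other ubiquitin ligases of muscle atrophy and SCF subunits, 1 was called for each siRNA. Over all genes, 0.932% were called lower for si1, and 1.93% higher and 1.19% lower for si2. NEDD4, a HECT-type ligase, fell with si1 from 111 ± 19.3 (SD, n = 4) to 37.6 ± 11.5 (SD, n = 3), a log2 difference of -1.57 (SE 0.26; limma adjusted p = 0.0363), while in si2 it was at 155 to 235. UBE2B, a ubiquitin-conjugating enzyme, rose with si2 from 125 ± 25.8 (SD, n = 4) to 240 ± 30.4 (SD, n = 4), a log2 difference of 0.95 (SE 0.19; limma adjusted p = 0.0272). Both lost the call when any single library other than siSCR 1 was left out, with adjusted p up to 0.147 for NEDD4 and 0.130 for UBE2B over all alternatives. Both calls were also absent with the replicate block (limma adjusted p = 0.147 for NEDD4 and 0.0799 for UBE2B). For si1 that fit also left out siSCR 4, without which NEDD4 already lost its call (limma adjusted p = 0.129). The mitochondrial covariate ended the call of NEDD4 (limma adjusted p = 0.0501). The medians of the list were -0.03 and 0.04. Over the 4 lists, 1 tested gene was called for si1 and 3 for si2. Without siSCR 1, 0 of 27 insulin, PI3K and AKT genes were called for si1. For si2, 4 of 28 were called higher and 1 lower. Of the 18 FOXO regulators, 1 was then called higher and 2 lower for si1, and 1 higher and 1 lower for si2. The ligase list kept only NEDD4, lower for si1, and UBE2B, higher for si2. In these fits without siSCR 1, 13.5% of all genes were called for si1 and 14.4% for si2. As higher, 7.01% and 7.74% were called.

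**Figure D4:**
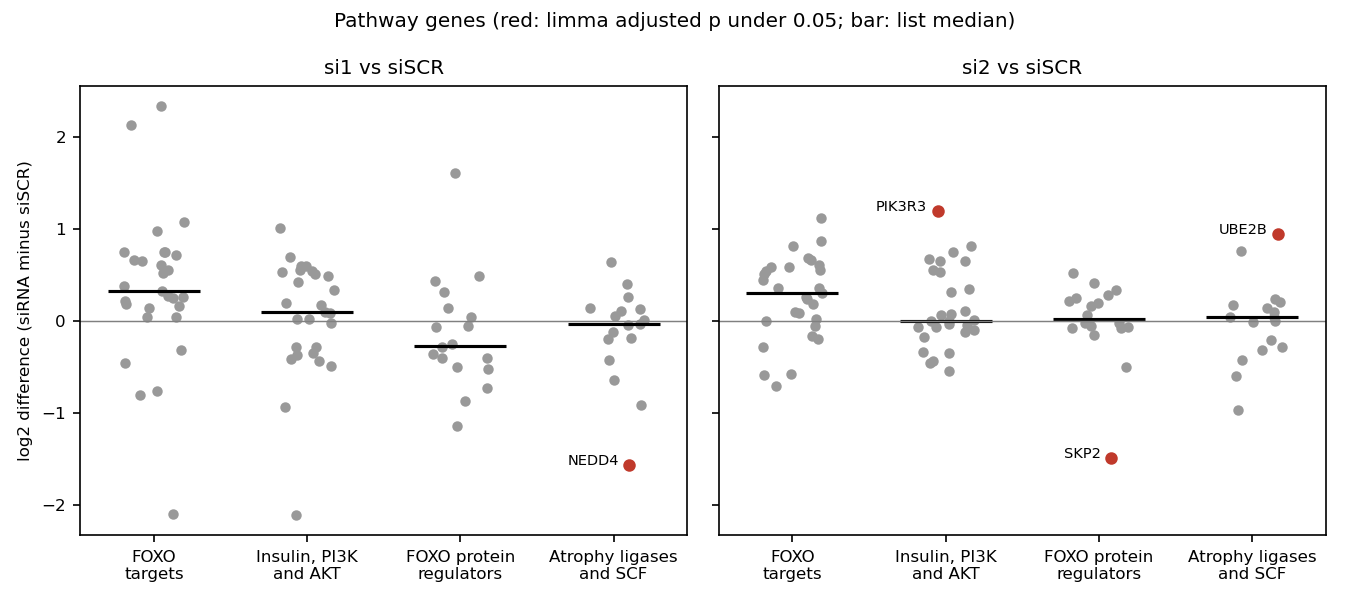
Log2 difference from siSCR (vertical axis) of each tested gene in the 4 pathway lists, for si1 (left) and si2 (right); bars are list medians and red points are genes with a limma adjusted p under 0.05. The named red points are NEDD4 for si1 and PIK3R3, SKP2 and UBE2B for si2.

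The genes whose profile over the 11 libraries was most like that of FBXO32 were found by the root-mean-square difference between centred log2 levels, among 10759 other genes with a normalized count of at least 10 in 3 libraries. The closest was ACSM3, a mitochondrial medium-chain acyl-CoA synthetase, at 0.40. Its counts were 57.1, 6.41, 9.16 and 13.2 in siSCR, 158, 99.9 and 105 in si1, and 31.0, 31.3, 28.4 and 30.6 in si2. Next were ZNF570 (0.51), VAMP5 (0.52), GAS6-AS1 (0.59) and ABCA12 (0.59), of which ZNF570 and VAMP5 were at 0 to 6.72 in the controls. ZNF570 and VAMP5 reached 10 only in the si1 libraries. They were compared only through the group where FBXO32 was highest, so nothing is read from their places. TRIM55 was at place 17 with 0.73, a place that is not independent of the choice of both genes for the same pattern. PIK3IP1, FOXO3 and IRS2 came at places 737, 775 and 819 with 1.26, 1.27 and 1.28, FOXO1 at 1440, FOXO4 at 3221 and CITED2 at 6881. In each of the 5 closest genes siSCR 1 was the highest control. The same holds for FBXO32, whose profile they were picked to match, so nothing is read from it.

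**Figure D5:**
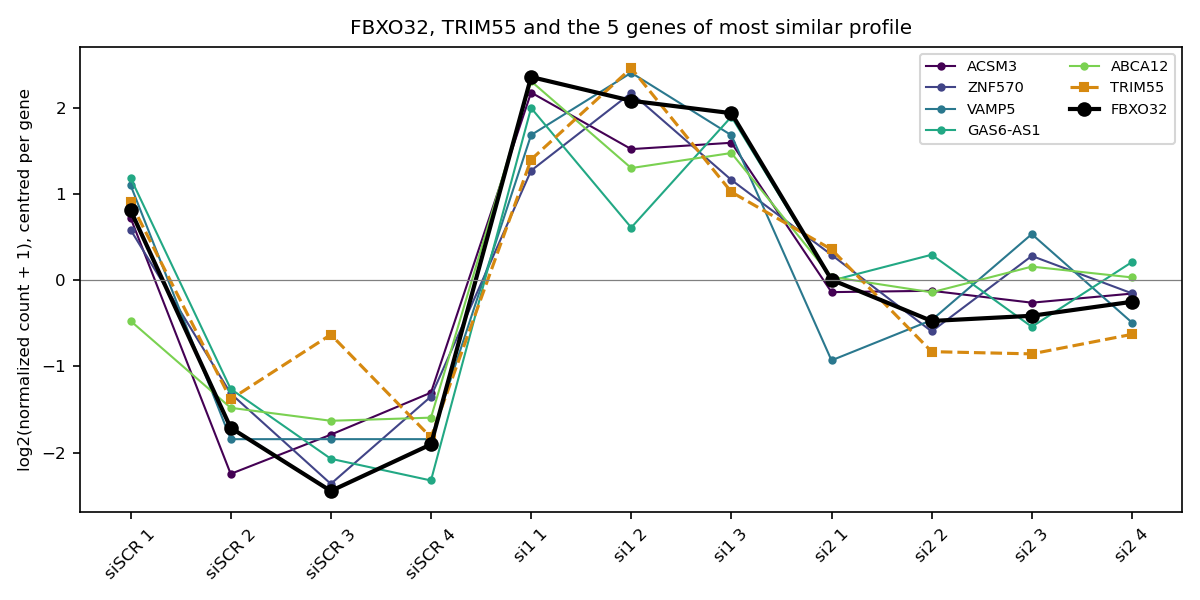
Log2(normalized count + 1), centred on its mean per gene (vertical axis), in each of the 11 libraries (horizontal axis) for FBXO32 (black), TRIM55 (orange, dashed) and the 5 genes of smallest root-mean-square difference from FBXO32. Each line has its lowest value among siSCR 2 to 4 and its highest among the si1 libraries, and in siSCR 1 all but ABCA12 lie above their own mean.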

How the data were processed

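Libraries of 769-P cells in 3 groups (siSCR 4, si1 3, si2 4) were assigned from their titles. The submitters' processing notes list cutadapt, FastQC, STAR, HTSeq, DESeq2 and GRCh38. Per the labels' protocols, HTSeq quantified the reads and the authors applied relative log expression (RLE) scaling in DESeq2. Tool versions, the annotation and the strand setting: not given in the sources used here. Library columns as deposited hold log2 values, log2(normalized count + 1); undone, 100% of values in each library lay within 0.01 of a whole read, and these reads gave the depth. The siSCR values of the tables did not differ. Beside them, per the file headers, the authors deposited a mean normalized signal, a log2 fold change, and a p-value with its adjusted p-value.

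The members and gene lists were chosen with earlier results of these data known. Each comparison was fitted on its own libraries with limma 3.58.1 (R 4.3.3), group as the only term, on log2(normalized count + 1), keeping genes that reached a normalized count of 10 in a number of libraries equal to the size of the smaller group. Calls are Benjamini-Hochberg adjusted p under 0.05 over all genes, two-sided. The script was tested on simulated data. Named genes are the members, AKR1A1, up to 3 called genes per pathway list and comparison (with none called, the 2 most abundant) and the 5 profiles most like FBXO32; FOXO6 and the genes under other observations were added after their values were seen. A gene that this rule names is not reported here. All 102 listed pathway genes were matched. Lengths and positions are from GENCODE 29 (GRCh38), where a length is the union of all annotated exons. Alternatives were upper-quartile scaling, no filter, pseudocounts of 0.5 and 5, voom on the recovered reads, all 11 libraries in one fit, the mitochondrial percentage as a covariate, the replicate block and leaving out each library. The block used only replicate numbers present in both groups. It thus left out siSCR 4 for si1 against siSCR, and si2 4 for si1 against si2. The read limit for counts of 0 covers counting error only.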

Additional observations from a re-analysis of the deposited data

Results flagged for a closer look

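Among groups of 4 libraries, each member was examined on the log2 scale and as normalized count for a library whose gap to its nearest neighbour, as a share of the group's range, exceeded Dixon's 95% critical value, in 36 group checks; chance alone flags about 1 in 20. FBXO32 stood at a normalized count of 146 in siSCR 1 against 14.4 to 24.6 in the other controls (gap 0.923 of the range). In si2 1, TRIM55 stood at 45.1, where the remaining si2 libraries were at 18.9 to 22.3 (gap 0.871 of the range). SESN3 was at a normalized count of 2.52 (log2 level 1.81) in siSCR 1, from 3 reads, and at 0 in the other controls. With those at 0, any read in siSCR 1 gives a gap of the whole range, so nothing is read from this flag. On the log2 scale, FBXO32 and TRIM55 did not exceed the limit. siSCR 1 was also the control library with 12.1% mitochondrial reads against 3.46% to 4.46%; the part of that share in these values was not tested.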

How the results depend on the processing

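Counts of called genes under each alternative are given here where they left the range of 1.5 times the main count, which stands in parentheses. For si1 against siSCR the count over all genes (181) was 5 with no filter, 414 with a pseudocount of 5, 582 with voom, 1112 with all 11 libraries in one fit and 0 with the replicate block; the members beside FBXO32 and TRIM55 (0) gave 1 with voom and 2 in the fit of all libraries. The pathway count (1) was 2 with upper-quartile scaling, 0 with no filter, 3 with a pseudocount of 5, 6 with voom, 9 with all libraries, 3 with the mitochondrial covariate and 0 with the block. For si2 against siSCR the count over all genes (320) was 108 with no filter, 1343 with the mitochondrial covariate and 175 with the block; the members (0) gave 2 with a pseudocount of 5, 1 with voom and 2 with the covariate. PIK3IP1 was 1 of the 2 members called for si1 in the fit of all libraries. For si2 it was 1 of the 2 with a pseudocount of 5, with the covariate and without siSCR 1. It entered these fits only through siRNA libraries, so nothing is read from its calls. The pathway count (3) was 1 with no filter, 5 with a pseudocount of 5, 6 with voom, 0 with all libraries and 21 with the covariate. Beside these si2 counts, a pseudocount of 5 called 424 of all 10249 genes and voom called 463. For si1 against si2 the count (704) was 230 with no filter, 1172 with voom, 167 with the covariate and 6 with the block. The block also left out siSCR 4 for si1 against siSCR, and si2 4 for si1 against si2. Leaving out that library alone gave 0 and 120 genes. The cause was not tested.

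Leaving out 1 library in turn gave 0 to 1399 genes for si1, 88 to 1496 for si2 and 120 to 803 between the siRNAs, 0 to 2 members for either siRNA, and 0 to 12 and 1 to 20 pathway genes; the highest counts against the control were without siSCR 1. The sign of the si1 difference turned for FOXO4 with upper-quartile scaling (0.0311) and over single left-out libraries (-0.40 to 0.37), for CITED2 with voom (-0.0393) and over left-out libraries (-0.18 to 0.26), and for AKT2 (-0.80 to 0.11). The differences of FBXO32 stayed between 3.06 and 4.15 for si1 and between 0.65 and 1.74 for si2 over left-out libraries.

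Replicate numbers are shared by the titles only. Deviations of equal numbers correlated at 0.0958 to 0.394 for si1 and siSCR, with the highest value for siSCR 1 and si1 1. For si2 and siSCR they correlated at -0.0317 to 0.164. Of the libraries, 4 of 6 and 5 of 8 correlated best with their own number. Whether equal numbers share a culture or batch was not tested. The main fits do not model such a pairing, and the block, whose counts were 0 and 175, stands only as an alternative. PIK3IP1, SESN3, CITED2 and FOXO4 rest on few reads, which limits the precision of their values.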

Other observations

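The following genes of the pathway lists were picked after their values were seen and are given as descriptions. SESN1, a sestrin induced by p53 and by FOXO factors, was at normalized counts of 62.1, 21.4, 30.1 and 20.4 in siSCR, 109, 200 and 114 in si1, and 49.5, 40.1, 44.1 and 19.7 in si2, so that its si1 libraries lay above all others while its relative SESN3 was almost absent. TXNIP, which binds thioredoxin and limits glucose uptake, had a normalized count of 1956 in siSCR 1 and of 592 to 606 in the other controls, 1506 to 2075 in si1 and 627 to 1097 in si2. SGK3, a kinase related to AKT, had normalized counts of 5.34 to 13.1 in the controls, 4.16 to 7.03 with si1 and 13.5 to 19.5 with si2, on 3 to 26 reads per library.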
